A study of Mus musculus with 2 samples.

Results

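Immediate early genes and heat shock chaperones were followed through 2 single-cell libraries of mouse eye tissue. The group holds 31 genes, chosen by symbol among the 32286 features of the deposited count matrices: 21 early genes (Fos, Fosb, Jun, Junb, Jund, Egr1, Egr2, Egr3, Ier2, Ier3, Atf3, Klf2, Klf4, Klf6, Zfp36, Nr4a1, Nr4a2, Dusp1, Btg2, Npas4 and Arc) and 10 chaperones (Hspa1a, Hspa1b, Hspa8, Hsp90aa1, Hsp90ab1, Hsph1, Dnaja1, Dnajb1, Hspe1 and Hspd1). All 31 were found in both matrices. Optic cups of Abca4KO mice, which lack the photoreceptor transporter mutated in Stargardt disease, were dissociated with papain and profiled with the 10x Genomics 3′ kit. An eye of each mouse had received AAV2.8-Sponge.mir181, an adeno-associated vector whose transcript carries binding sites meant to occupy miR-181a and miR-181b. The contralateral eye had received AAV2.8-GFP, the control vector. Both groups therefore share the Abca4 deletion, the injection under the retina and the vector serotype. Injection at 2 months and collection after 4 more months are given by the series, but the samples themselves are labelled 4 months old. The number of mice in each library and the promoter of each vector are not given in the sources used here.

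Early genes are held ready for transcription and respond within minutes to growth factors, calcium, light or injury. Most encode transcription factors (the AP-1 proteins Fos and Jun, the Egr, Klf and Nr4a families) or proteins that end the response, such as the mRNA decay factor Zfp36 and the phosphatase Dusp1. In the retina they respond to light and to injury, in glia as well as in neurons, and enzymatic dissociation of a tissue is known to induce them in many cell types. Heat shock chaperones fold proteins and keep them soluble: some are made at all times (Hspa8, Hsp90ab1), and others are switched on by heat shock factor during stress (Hspa1a, Hspa1b, Dnajb1). All cells had gone through dissociation, so a state of the tissue and a response to dissociation cannot be told apart here.

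Each group is 1 library, so no difference between the libraries could be tested. The intervals given are 95% intervals for counting error only or, for shares of cells, for the sampling of cells within 1 library. Unique molecular identifiers (UMIs), each standing for 1 captured RNA molecule, were summed per cell class and library and are given as CPM, their count scaled to a total of 1000000 UMIs for that class. Of 39461 and 23267 barcodes in the libraries labelled GFP and sponge, 39285 and 23200 passed the filters, with median UMIs per cell of 2415 and 2980.5 and median mitochondrial shares of 11.2% and 8.87%. The labels were checked on 2 sequences. The eGFP sequence was counted 12 times in kept GFP-labelled cells and 5484 times in kept sponge-labelled cells, whose RPE held 671 CPM against 1.17 CPM. This count goes against the labels, and no source used here says whether the sponge vector carries eGFP, so every direction below is between the library labelled sponge and the library labelled GFP. The 3′ tags of Abca4 stood at 144 and 135 CPM in rods and do not check the deletion. The libraries shared 290 barcodes, of which 287 passed the filters in both. In 47 of them the GFP-labelled copy held only 0.651% to 0.771% of the UMIs of the sponge-labelled copy, and in 2 the reverse held at 0.719% to 0.789%.

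Cells were clustered without the members and without 2 wider lists of related genes, and 14 classes were named from marker genes. Each class name below means cells resembling that type by its markers. Müller glia are given as their clusters 3 and 12, which makes 15 units. Cluster 3 was led by Müller genes such as Slc1a3 and Abca8a, and cluster 12 by genes of reactive glia (Lcn2, Gfap, Cp) and by 2 genes of the wider early list, Fosl1 and Maff. A further Müller cluster, 34, led by interferon-induced genes, held only 19 GFP-labelled cells against 409 and was left out of the 15 units. Unnamed clusters held 41.6% of the GFP-labelled and 37.7% of the sponge-labelled cells. Cells of the sponge-labelled library were deeper in most units, for example 7842 against 2447 median UMIs in Müller cluster 3, and had lower mitochondrial shares, 4.09% against 9.79% there. The part of depth and of mitochondrial share in the differences below was not tested, beyond the settings with thinned cells and stricter filters.

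Within each library the early genes were lowest in retinal neurons and highest in Müller cluster 12. Their summed UMIs made up 1.35% and 2.82% of all UMIs in Müller cluster 12 in the GFP-labelled and the sponge-labelled library, 0.419% and 1.14% in Müller cluster 3, 0.699% and 1.52% in endothelial cells and 0.760% and 1.18% in fibroblasts. In bipolar cells the share was 0.139% and 0.129%, and in rods 0.170% and 0.210%. Of the 21 early genes, 15 had their highest level in Müller cluster 12 in both libraries. The other 6 peaked elsewhere: Klf2 in endothelial cells, Nr4a2 in fibroblasts, Npas4 in amacrine cells, Ier3 and Klf4 in ocular surface epithelium, and Dusp1 in that epithelium in the GFP-labelled library and in endothelial cells in the other. Fos, the AP-1 subunit most used as a mark of recent activation, ranged from 252 CPM in bipolar cells to 3259 CPM in Müller cluster 12 of the GFP-labelled library and from 188 to 6472 CPM in the same units of the other. No class was free of it.

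**Figure D1:**
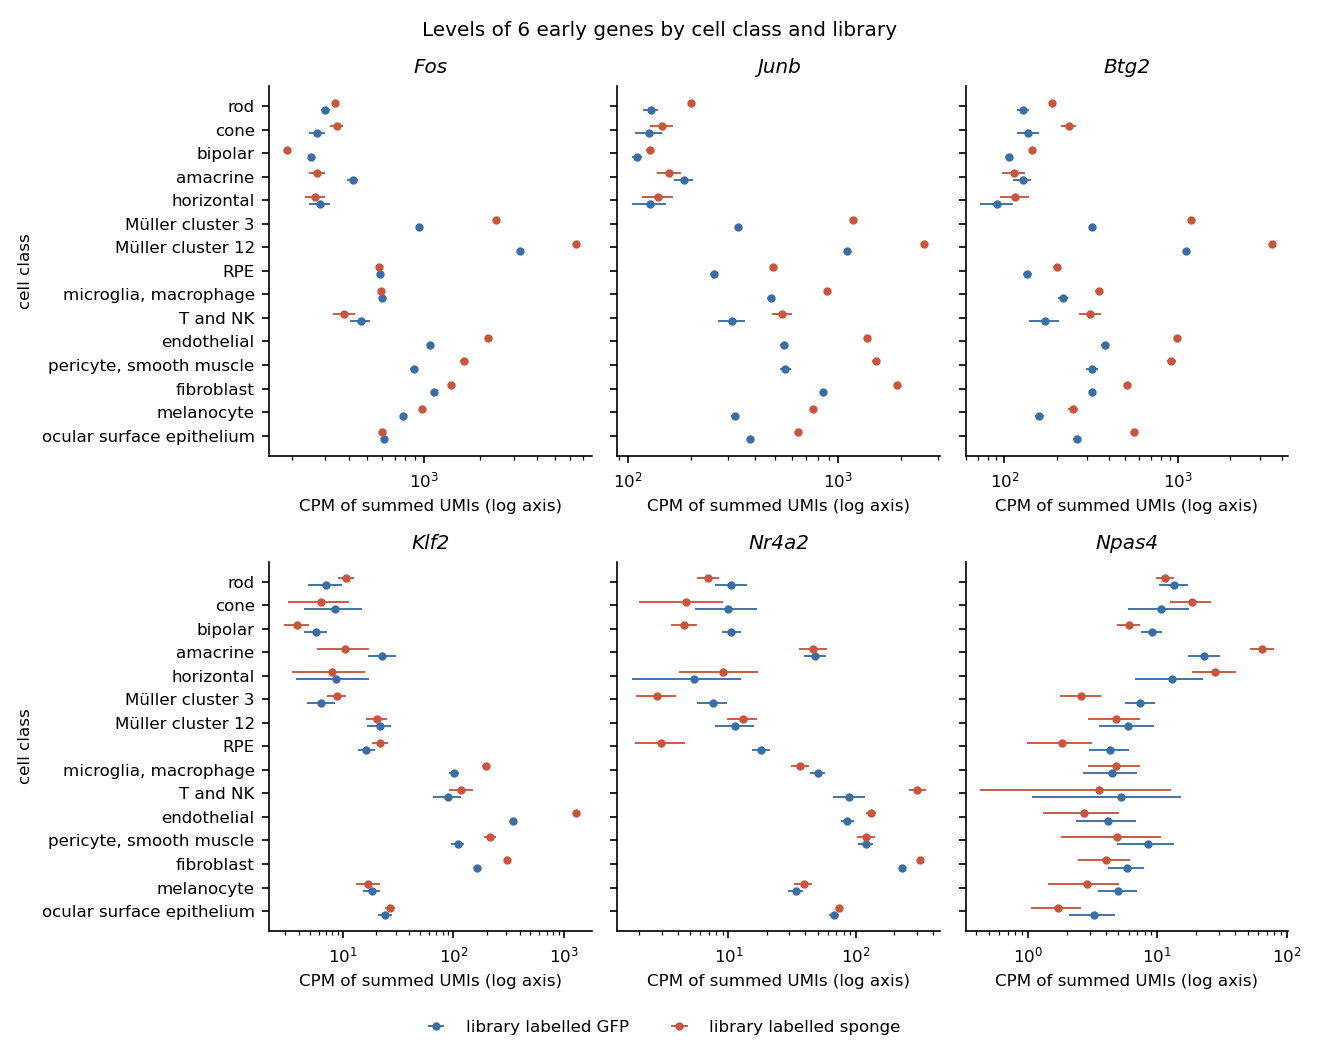
CPM (log axis) of Fos, Junb, Btg2, Klf2, Nr4a2 and Npas4 in each of the 15 units, with 1 point per library and bars for the 95% Poisson interval of counting error. Klf2 is highest in endothelial cells, Nr4a2 in fibroblasts and Npas4 in amacrine cells, whereas Fos, Junb and Btg2 are highest in Müller cluster 12.

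Between the libraries, the early genes of glia and blood vessels stood higher in the sponge-labelled cells, while the medians of the retinal neurons ran from -0.32 in amacrine cells to 0.31 in rods. A gene counted as measured in a unit with at least 20 UMIs over both libraries, and ratios are log2 of the sponge-labelled over the GFP-labelled CPM. In Müller cluster 3 the median ratio of the 21 early genes was 1.12, with 11 at least 2-fold higher and 2 at least 2-fold lower, whereas the median over all 15763 measured genes was 0.07, with 2.33% at least 2-fold higher and 9.08% lower. In Müller cluster 12 the median was 0.99 and 10 of 21 were at least 2-fold higher and 0 lower, beside 3.41% higher and 5.18% lower of all measured genes. Endothelial cells gave a median of 1.04 with 12 of 21 at least 2-fold higher and 0 lower (background 4.76% and 5.34%), and pericytes with smooth muscle a median of 0.88 with 5 higher and 1 lower (background 6.31% and 4.95%). In these 4 units the shares of early genes at least 2-fold higher stood several times above those of all genes. Müller cluster 34, outside the units, had a lower median of 0.37, with 12 of 19 measured early genes above 0. There 2 were at least 2-fold higher and 2 lower (background 12.8% and 19.2%), with only 19 GFP-labelled cells. Median depth was 3378 and 11025 UMIs in Müller cluster 12, 2690.5 and 5864 in endothelial cells and 2528 and 4174 in pericytes in the 2 libraries, and the median mitochondrial share 8.36% and 4.73%, 10.0% and 5.18% and 11.3% and 7.74%. With all cells thinned to 1000 UMIs, and with a stricter filter that includes at most 10% mitochondrial UMIs, the Müller cluster 3 median was 1.15 and 0.97, and it lay between 0.93 and 1.15 over the alternatives tried there. Under median-of-ratios scaling the median over all genes was -0.031 in this cluster, and the early median 1.01.

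Over the whole class, the connective and surface classes had smaller medians. Fibroblasts had a median of 0.47 with 4 of 21 early genes at least 2-fold higher and 0 lower (background 6.43% and 8.93%). Their cells came from clusters 5 (2212 GFP-labelled and 310 sponge-labelled cells) and 25 (392 and 313), in different proportions in the libraries. Within these clusters the early medians were 0.64 and 0.73, both above the value over the class, with 5 and 8 of 21 at least 2-fold higher and 1 and 0 lower. The shares of all measured genes past 2-fold were 7.04% higher and 11.1% lower in cluster 5 and 6.32% higher and 5.59% lower in cluster 25. Melanocytes had a median of 0.33 with 2 higher and 0 lower (background 3.23% and 10.7%), and under 4 alternatives, thinned cells among them, the median was 0.51 to 0.70. Melanocyte clusters 9 (1009 GFP-labelled and 323 sponge-labelled cells) and 17 (937 and 68) also entered in different proportions, and had early medians of 0.48 and 0.52. Cluster 9 had 3 of 19 measured early genes at least 2-fold higher and 0 lower, beside 3.83% higher and 10.5% lower of all genes, and cluster 17 had 4 of 21 higher and 1 lower, beside 3.02% higher and 5.52% lower. In ocular surface epithelium the median was 0.40 with 2 higher and 0 lower, while the median over all genes there was -0.37 and 3.73% were at least 2-fold higher and 23.9% lower. That epithelium is the unit most touched by shared barcodes: 37 shared cells held 24.0% of its UMIs in the sponge-labelled library, and without the shared barcodes the early median was 0.59. With median-of-ratios scaling the early median was 0.66 and that of all genes -0.11. Median UMIs there were 5709 and 23179.

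Immune cells and the retinal pigment epithelium (RPE) had few early genes at least 2-fold higher. Microglia and macrophages had a median of 0.27, with 1 of 21 early genes at least 2-fold higher and 0 lower (background 4.39% and 9.61%). Most of their GFP-labelled cells (1037 of 1222) lay in cluster 8, whereas the sponge-labelled cells were split between clusters 8 (345) and 29 (365), and the median was 0.25 and 0.26 within these clusters. Immunoglobulin genes (Igkc, Igha, Jchain) were among the leading genes of cluster 8. T and NK cells had a median of 0.41 over 17 measured genes with 1 higher and 1 lower (background 9.47% and 6.77%). In RPE the median was -0.14, with 0 higher and 4 lower (background 2.47% and 17.5%). The median over all genes there was -0.21, and the early median came to 0.048 with cells weighted equally, so the early genes as a list have no direction of their own in RPE. Here the clusters differed. RPE cluster 14, which held 944 of the 1110 GFP-labelled cells but 159 of the 459 sponge-labelled cells, had a median of -0.25, and cluster 32, led by eGFP, RPE genes and interferon-induced genes, had a median of 0.88 with 6 of 16 measured genes at least 2-fold higher and 0 lower, beside 9.33% higher and 11.2% lower of all genes measured there. The RPE value over both clusters therefore mixes them in different proportions.

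The retinal neurons did not share a direction. Rods had a median of 0.31 with 16 of 21 early genes above 0, 0 at least 2-fold higher and 0 lower (background 2.05% and 4.17%). The medians of the lower and upper counting limits of these genes in rods were 0.04 and 0.55. Cones had a median of 0.07 with 0 higher and 1 lower of 19 (background 3.46% and 4.46%). Bipolar cells had a median of -0.19, only 4 of 21 ratios above 0, and 0 higher and 2 lower by 2-fold (background 1.12% and 7.82%). Amacrine cells had a median of -0.32 with 1 higher and 2 lower of 19 (background 2.87% and 5.89%), but the median was 0.22 when every cell counted equally and 0.19 in thinned cells. Horizontal cells had a median of 0.02 with 1 higher and 1 lower of 16 (background 4.96% and 3.45%). With median-of-ratios scaling the cone and horizontal medians turned to -0.010 and -0.066, so neither has a direction of its own. The sponge-labelled cells were deeper in these neurons too, for example 2417 and 6315 median UMIs in bipolar cells. Whether the difference between glia and neurons is larger than that between animals was not tested, with 1 library per group.

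**Figure D2:**
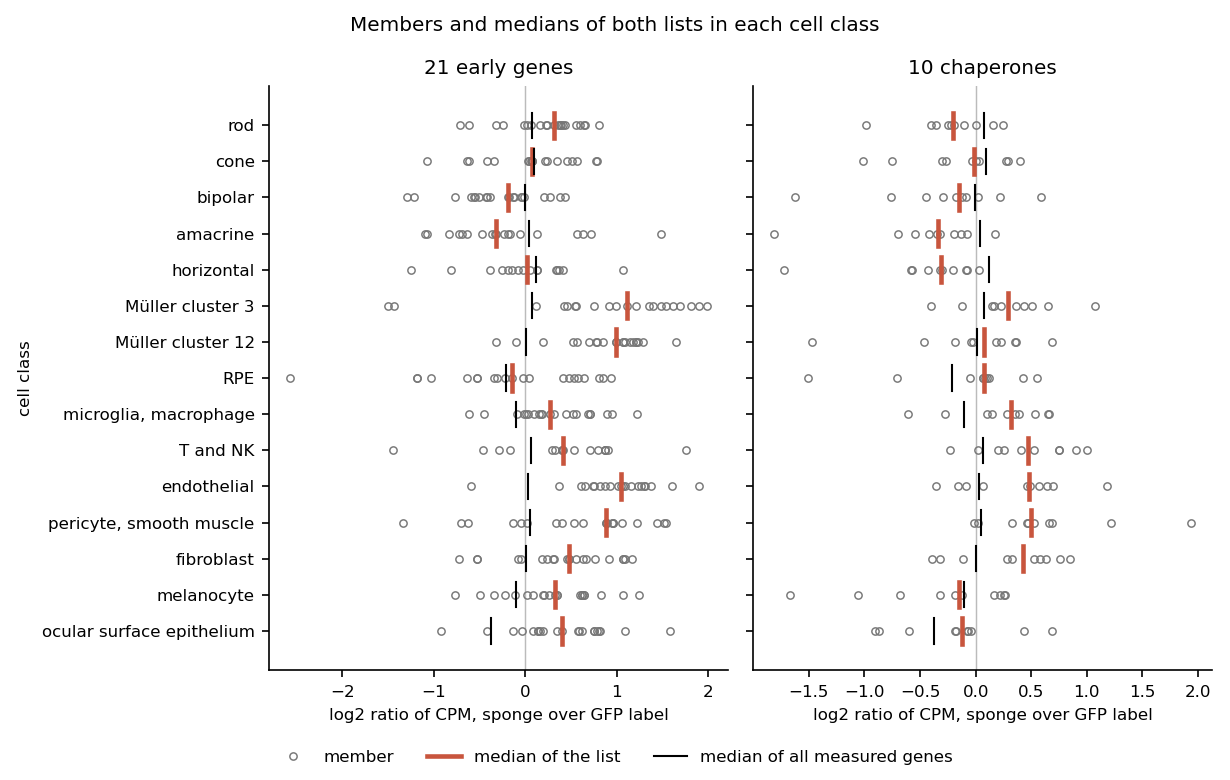
Log2 ratio (library labelled sponge over library labelled GFP) of each measured early gene (left, circles) and chaperone (right, circles) in each of the 15 units, with a red bar at the list's median and a black bar at the median of all measured genes. The early gene medians stand near 1 in both Müller clusters and in endothelial cells and at or below 0.31 in the retinal neurons.

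**Figure D3:**
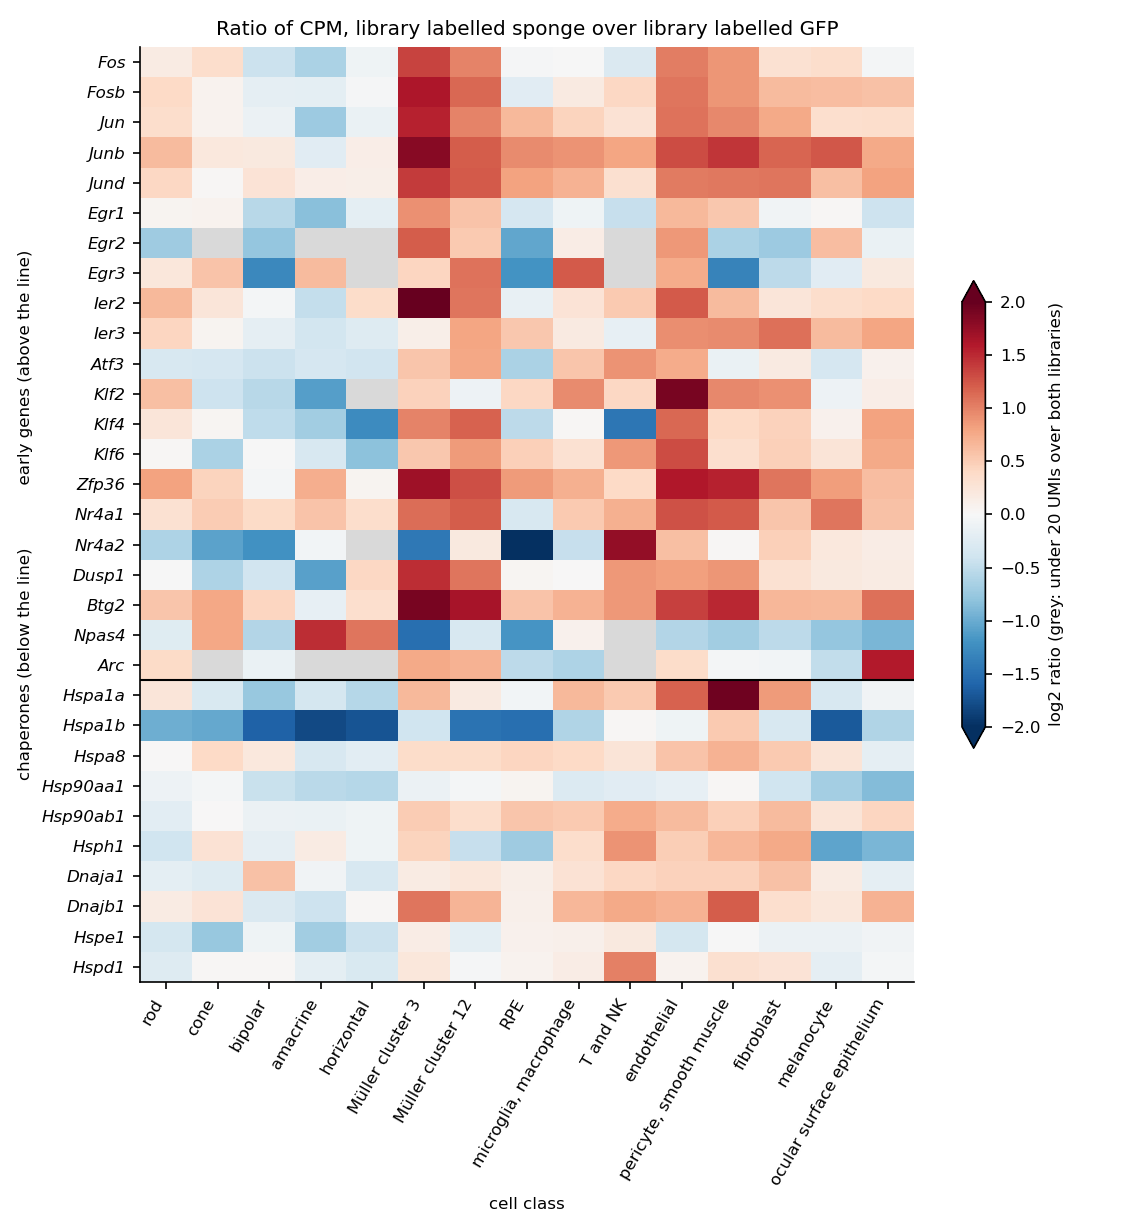
Log2 ratio (library labelled sponge over library labelled GFP) of each of the 31 members (rows) in each of the 15 units (columns), with pairs under 20 UMIs in grey. The early genes form a block of higher values in the Müller, endothelial and pericyte columns, and Hspa1b is lower in most columns.

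All 5 AP-1 subunits were at least 2-fold higher in Müller cluster 3 of the library labelled sponge. Fos in Müller cluster 3 stood at 948 CPM in the GFP-labelled library and 2427 CPM in the sponge-labelled library, a log2 ratio of 1.36, 1.32 to 1.39. Its partner Jun was at 694 and 2014 CPM there and Fosb, a close relative of Fos, at 277 and 847 CPM, with ratios of 1.54 and 1.61. Junb and Jund, Jun relatives with weaker or opposing activity at growth genes, passed 2-fold in more units than the others. Junb was at 334 and 1174 CPM in Müller cluster 3 (1.81, 1.75 to 1.88), 1105 and 2557 CPM in Müller cluster 12 and 559.7 and 1515 CPM in pericytes (1.44, 1.33 to 1.54). It was also at least 2-fold higher in endothelial cells (554 and 1372 CPM), fibroblasts (851 and 1907 CPM) and melanocytes (322 and 759 CPM), 6 units in all. Jund was at least 2-fold higher in 5 units: 285 and 751 CPM in Müller cluster 3, 661 and 1549 CPM in cluster 12, 465 and 959 CPM in endothelial cells, 405 and 846 CPM in pericytes and 639 and 1342 CPM in fibroblasts. Junb was above a ratio of 0 in 14 and Jund in 15 of 15 units.

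In Müller cluster 12, where all AP-1 genes were highest, Fos was at 3259 and 6472 CPM and Jun at 1860.3 and 3690.3 CPM, which were just short of 2-fold (log2 0.99 and 0.99), and Fosb at 817 and 1808 CPM (1.15, 1.08 to 1.21). Jund there had a ratio of 1.23. Endothelial cells held Fos at 1084 and 2192 CPM (1.02, 0.96 to 1.07), Jun at 1045 and 2229 CPM and Fosb at 326 and 682 CPM. Rods had 301 and 337 CPM of Fos, and bipolar cells 252 and 188 CPM, lower in the sponge-labelled library. Fos was above a ratio of 0 in 8 of 15 units, so its direction was split by class. For Jun, Junb and Jund an annotated gene overlaps on the opposite strand (Junos, Prdx2 and Gm11175). No source used here gives the strand setting of the counting. Whether reads of these neighbours entered the counts of Jun, Junb and Jund was not tested. Such a neighbour lies over 6 of the 21 early genes (also Atf3, Zfp36 and Dusp1) and 4 of the 10 chaperones (Hspa1a, Dnaja1, Hspe1 and Hspd1).

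The Egr zinc-finger factors, which respond to the same kinase signals as Fos, differed by member. Egr1 was highest in Müller cluster 12 at 1226 CPM in the GFP-labelled library and 1815 CPM in the sponge-labelled library, and in Müller cluster 3 at 467 and 879 CPM, a ratio of 0.91, 0.86 to 0.97. It reached 2-fold in no unit, and was lower in amacrine cells at 280.4 and 158 CPM. Egr2 peaked in Müller cluster 12 at 107 and 153 CPM, was 2-fold higher in Müller cluster 3 at 17.0 and 39.4 CPM and lower in RPE at 6.76 and 3.27 CPM, the last a ratio of -1.03, -1.83 to -0.32 that turned to 0.42 when every cell counted equally. Egr3 was at 79.1 and 168 CPM in Müller cluster 12 (1.09, 0.87 to 1.31). In microglia and macrophages it was at 27.3 and 64.0 CPM (1.23, 0.91 to 1.56), a ratio of 0.64 with cells weighted equally. It was lower in bipolar cells at 5.79 and 2.36 CPM (-1.29, and -0.74 by marker score) and in RPE at 6.89 and 2.98 CPM (-1.19, but -0.021 with cells weighted equally). In the neurons Egr2 and Egr3 rested on few UMIs, for instance 14 and 5 of Egr2 in amacrine cells.

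Ier2, a nuclear early-response protein, had the highest ratio of any early gene in Müller cluster 3: 188 CPM in the GFP-labelled library and 748 CPM in the sponge-labelled library, a log2 ratio of 1.99, 1.91 to 2.07. It was at 563 and 1179.8 CPM in Müller cluster 12, its highest unit, and at 183 and 428 CPM in endothelial cells. Ier3, which protects cells from apoptosis, followed another pattern. It was highest in ocular surface epithelium at 456 and 788 CPM and passed 2-fold only in fibroblasts, at 199 and 426 CPM (1.1, 1.0 to 1.19), while Müller cluster 3 held 66.3 and 71.9 CPM, nearly level. Atf3, a stress-induced repressor that marks injured neurons and glia, was highest in Müller cluster 12 at 859 and 1470.0 CPM and reached 2-fold in no unit, with ratios from -0.64 in RPE to 0.90 in T and NK cells.

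The Klf factors divided by class. Klf2, the factor that flow induces in endothelial cells, was at 347 CPM (328 to 366) in endothelial cells of the GFP-labelled library and at 1295 CPM (1258 to 1332) in those of the other, a ratio of 1.90, 1.81 to 1.99. In cells thinned to 1000 UMIs it was seen in 23.8% (21.3% to 26.5%) and 53.5% (48.4% to 58.5%) of endothelial cells (46.5% and 77.2% unthinned), against 0.551% and 1.04% of thinned rods as the comparison class. Klf2 was lower in amacrine cells at 22.7 and 10.4 CPM, a ratio of -1.10 that came to -0.18 with classes set by marker score. Klf4, a barrier factor of surface epithelia and vessels, was highest in ocular surface epithelium at 693 and 1216 CPM. It was 2-fold higher in endothelial cells at 298 and 663 CPM and in Müller cluster 12 at 163 and 371 CPM, and lower in T and NK cells at 83.5 and 30.03 CPM, where the ratio of -1.45, -2.37 to -0.65 came to 0.02 in thinned cells. Klf6, an injury-induced relative, peaked in Müller cluster 12 at 278 and 501 CPM and passed 2-fold in endothelial cells at 164 and 403 CPM (1.30, 1.16 to 1.44).

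Genes that end the response were higher where the AP-1 genes were. Zfp36 (tristetraprolin), which binds AU-rich mRNAs and hastens their decay, stood at 67.2 CPM in the GFP-labelled library and 217 CPM in the sponge-labelled library in Müller cluster 3, a ratio of 1.69, 1.56 to 1.83. It was at 397 and 970.3 CPM in Müller cluster 12, 183 and 558 CPM in endothelial cells (1.61, 1.48 to 1.74), 136 and 397 CPM in pericytes and 204 and 430.1 CPM in fibroblasts. Btg2, an antiproliferative partner of the deadenylase complex, was at 1125 and 3531 CPM in Müller cluster 12 (1.65, 1.60 to 1.70), 319 and 1193 CPM in cluster 3 (1.90, 1.84 to 1.97), 382 and 990.0 CPM in endothelial cells, 322 and 919 CPM in pericytes and 261 and 558 CPM in ocular surface epithelium. Zfp36 and Btg2 were each at least 2-fold higher in 5 units and above 0 in 14 of 15. Dusp1, the phosphatase that switches off MAP kinases, was at 165 and 463 CPM in Müller cluster 3 (1.48, 1.40 to 1.57) and 337 and 706 CPM in cluster 12. It was lower in amacrine cells at 104 and 49.1 CPM, a ratio of -1.08 that came to -0.37 in thinned cells, and its top units were ocular surface epithelium at 641 and 718 CPM and endothelial cells at 409 and 719 CPM.

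The Nr4a orphan receptors went separate ways. Nr4a1 (Nur77) was at least 2-fold higher in 5 units, among them Müller cluster 12 at 229.7 and 532 CPM, Müller cluster 3 at 57.2 and 124 CPM, endothelial cells at 153 and 369 CPM, pericytes at 177 and 414 CPM and melanocytes at 62.7 and 131 CPM. Nr4a2 (Nurr1), a factor of dopamine neurons that also restrains inflammation, was highest in fibroblasts at 228 and 317 CPM. In T and NK cells it stood at 88.7 CPM in the GFP-labelled library and 302 CPM in the sponge-labelled library (51 and 171 UMIs), a ratio of 1.76, 1.31 to 2.25, and in thinned cells it was seen in 8.37% (4.95% to 13.1%) and 31.9% (22.5% to 42.5%) (19.5% and 58.5% unthinned), against 1.14% and 0.649% of thinned rods. In RPE it lay the other way, at 18.1 and 2.98 CPM (139 and 21 UMIs), a ratio of -2.57, -3.34 to -1.93, the lowest of any named member. It was also lower in Müller cluster 3 at 7.53 and 2.76 CPM and in bipolar cells at 10.6 and 4.52 CPM (-1.22, and -0.68 in thinned cells). Nr4a1 and Nr4a2 thus lay on opposite sides of 0 in Müller cluster 3.

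The 2 members best known from neurons are the activity-induced factor Npas4 and the synaptic protein Arc. Npas4 was highest in amacrine cells, with 50 UMIs (23.1 CPM, 17.2 to 30.5) in the GFP-labelled library and 94 UMIs (64.9 CPM, 52.5 to 79.5) in the other, a ratio of 1.48, 0.98 to 2.01. It was the only early gene at least 2-fold higher there, where 14 of 19 measured early genes had a ratio below 0. In cells thinned to 1000 UMIs, 1.65% (0.826% to 2.93%) and 4.91% (2.48% to 8.62%) of amacrine cells held a Npas4 UMI, with overlapping intervals, and unthinned 5.50% and 21.6%. Endothelial cells, which should lack the gene, had 0.551% and 0.514% in thinned cells at median depths of 2690.5 and 5864 UMIs, against 2926 and 5546 in amacrine cells. Npas4 was lower in Müller cluster 3 at 7.40 and 2.60 CPM. Arc was highest in Müller cluster 12 at 91.0 and 148 CPM, not in a neuron, and passed 2-fold only in ocular surface epithelium at 14.4 and 43.4 CPM (1.58, 1.29 to 1.90). It had 0 UMIs in sponge-labelled T and NK cells, where 0 counts allow up to 5.30 CPM, and 3 in GFP-labelled ones.

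Counting genes per cell placed the same units high. After each cell was thinned to 1000 UMIs, which left out 0% to 3.71% of the cells of a unit, the number of the 21 early genes with a UMI was counted in every cell. Cells with at least 5 of them made up 16.3% (14.96% to 17.7%) and 43.2% (40.7% to 45.8%) of Müller cluster 3 in the GFP-labelled and sponge-labelled libraries, and 63.6% (60.1% to 66.9%) and 89.0% (85.4% to 92.0%) of cluster 12. Without thinning these shares were 43.6% and 86.1% and, in cluster 12, 89.4% and 99.5%. Endothelial cells gave 42.6% and 69.2%, pericytes 30.4% and 48.3%, fibroblasts 48.3% and 65.6% and ocular surface epithelium 43.2% and 60.8%. In melanocytes the shares were 15.3% and 26.1%. Neurons held few such cells: 1.77% (1.30% to 2.36%) and 3.91% (3.41% to 4.47%) of rods (12.2% and 37.0% unthinned). Cones had 0.987% (0.398% to 2.02%) and 3.77% (2.17% to 6.06%). The shares were 1.38% and 1.16% of bipolar cells, 5.10% and 4.91% of amacrine cells and 1.72% and 1.94% of horizontal cells. RPE gave 12.9% and 11.6%, and microglia and macrophages 21.6% and 22.7%. T and NK cells gave 10.3% (6.52% to 15.4%) and 20.9% (13.1% to 30.7%). The intervals overlapped in these units and in bipolar, amacrine and horizontal cells, but not in rods or cones. Such intervals cover the sampling of cells within 1 library, so overlap or its lack is no test between the libraries. At the other end, cells with none of the 21 were 14.5% and 8.08% of Müller cluster 3 and 27.8% and 29.6% of bipolar cells. The median cell of Müller cluster 3 held 2 and 4 early genes and that of cluster 12 held 6 and 10. The cut at 5 is a range on a scale, not a cell type: 13.6% and 15.3% of Müller cluster 3 cells held 4 or 5.

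**Figure D4:**
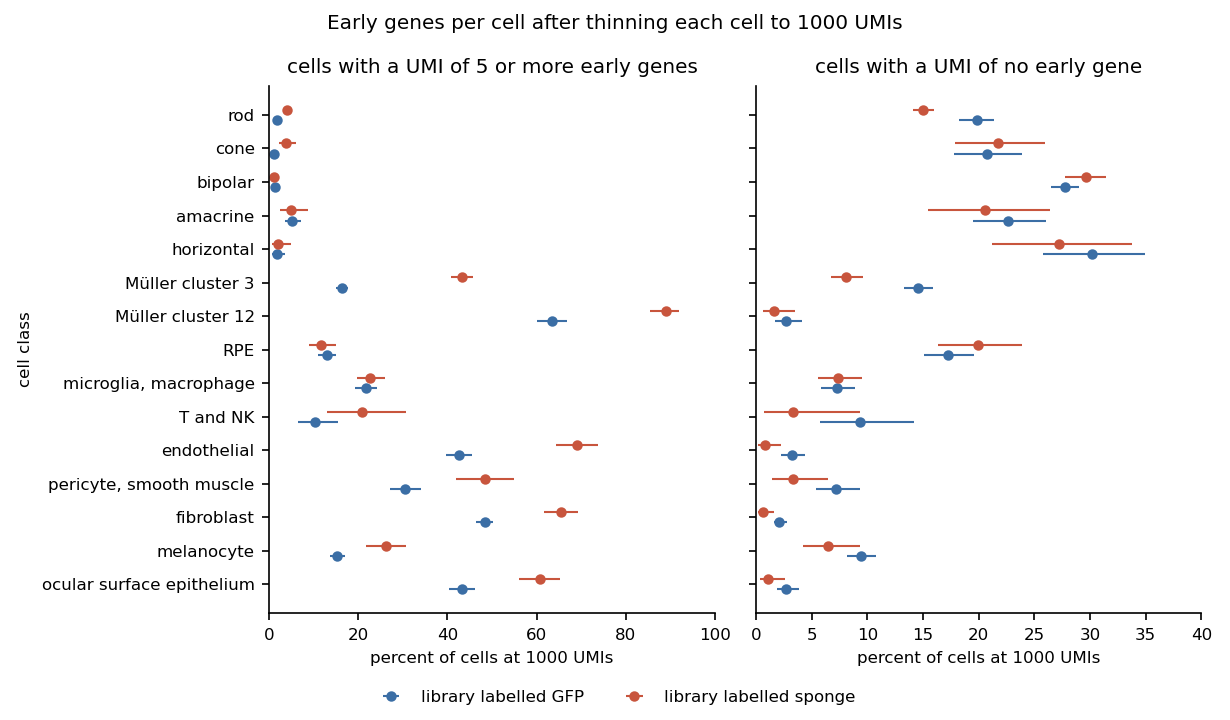
Percent of cells thinned to 1000 UMIs that held a UMI of 5 or more of the 21 early genes (left) or of none (right). Each of the 15 units has 1 point per library, with bars for the exact binomial 95% interval for the sampling of cells within that library. In Müller cluster 3 the sponge-labelled point lies at 43.2% with 5 or more, against 16.3% for the GFP-labelled point, and the neurons lie at or below 5.10% in both.

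Fos was seen in 42.7% and 59.2% of thinned Müller cluster 3 cells (65.8% and 87.1% unthinned) and in 27.4% and 27.3% of thinned rods (40.3% and 53.5% unthinned). The unthinned shares in rods differ by more than the thinned ones, at median depths of 1733 and 2376 UMIs. How far the rod share reflects free RNA and how far Fos made by rods was not measured.

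A wider list of 39 other early-response genes was also higher in the Müller and vascular units. In Müller cluster 3, 15 of 37 measured genes were at least 2-fold higher and 0 lower (median 0.77; all genes 2.33% and 9.08%), and in cluster 12, 17 of 38 were higher and 0 lower (median 0.91; all genes 3.41% and 5.18%). Ccn1, a matrix protein induced by Yap and serum response factor, was at 210.0 and 732 CPM in cluster 3 (1.80, 1.72 to 1.88), Srf, serum response factor itself, at 10.9 and 33.7 CPM, and Nr4a3, the remaining Nr4a receptor, at 27.6 and 86.5 CPM. Cluster 12 was led by Egr4 at 3.97 and 15.6 CPM, Srf at 28.8 and 93.9 CPM and the small Maf protein Maff at 243 and 772 CPM. Endothelial cells had 11 higher and 1 lower of 38 (median 0.76; all genes 4.76% and 5.34%), the lower one being the prostaglandin synthase Ptgs2 at 37.9 and 7.10 CPM. Pericytes had 12 higher and 1 lower of 37 (median 0.69; all genes 6.31% and 4.95%), with the cytokine-signal inhibitor Socs3 at 42.1 and 132 CPM. In amacrine cells 1 was higher and 5 lower of 34 (median -0.39; all genes 2.87% and 5.89%), among the latter Trib1 at 32.4 and 11.7 CPM. In RPE 2 were higher and 3 lower of 38 (median 0.09; all genes 2.47% and 17.5%). Nr4a3 was at 37.7 and 7.95 CPM and Ptgs2 at 7.15 and 1.14 CPM, both lower as Nr4a2 was, whereas Ppp1r15a, which restores translation after stress, was higher at 59.2 and 135 CPM (1.19, 1.02 to 1.35) and Cebpb, a factor of inflammation, at 95.1 and 199 CPM (1.07, 0.94 to 1.2).

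The chaperones showed no such block. Their median ratios lay between -0.34 in amacrine cells and 0.50 in pericytes, and at most 2 of the 10 reached 2-fold in any unit in 1 direction. In the units where the early genes were highest the chaperone medians were 0.29 in Müller cluster 3 (1 of 10 at least 2-fold higher, 0 lower, beside 2.33% and 9.08% of all genes), 0.08 in cluster 12 (0 higher, 1 lower, beside 3.41% and 5.18%) and 0.48 in endothelial cells (1 higher, 0 lower, beside 4.76% and 5.34%). Pericytes had the highest chaperone median, with 2 of 10 higher and 0 lower, beside 6.31% and 4.95%. Rods had -0.21, cones -0.02, bipolar cells -0.15 and horizontal cells -0.31 (0.002 by marker score). RPE stood at 0.08 (-0.070 in thinned cells), T and NK cells at 0.47 and fibroblasts at 0.43. Microglia and macrophages stood at 0.32 (0.17 thinned, 0.10 with cells weighted equally). The microglia and macrophage clusters differed: cluster 8 gave 0.40 with 8 of 10 chaperones above 0, and cluster 29 gave -0.17 with 3. Fibroblast clusters 5 and 25 gave 0.55 and 0.36, and melanocyte clusters 9 and 17 gave -0.27 and -0.09. RPE clusters 14 and 32 gave -0.009 and -0.027, each with 5 of 10 above 0, so the RPE value mixes them. With Hspa1a and Hspa1b summed, the chaperone median of Müller cluster 12 was -0.02. Melanocytes over both clusters had -0.15, which turned to 0.23 with finer clusters and to 0.39 with classes set by marker score, and ocular surface epithelium had -0.13, which turned to 0.13 with median-of-ratios scaling and lay at -7.33e-05 without the shared barcodes. The chaperones made up 0.762% and 0.977% of endothelial UMIs, their highest share, and 0.343% and 0.306% of bipolar UMIs.

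Hspa1a and Hspa1b, the inducible members of the 70 kDa chaperone family, differed from each other between the libraries. Summed, they were highest in endothelial cells at 2619 and 3649 CPM in the GFP-labelled and sponge-labelled libraries. Hspa1a there was at 886 and 2014 CPM (1.18, 1.12 to 1.25) and in pericytes at 345 and 1322 CPM (1.94, 1.81 to 2.07), the highest ratio of any chaperone. Hspa1b was at 1733 and 1635 CPM in endothelial cells, nearly level, and at least 2-fold lower in 7 units: cones (146 and 72.2 CPM, with a ratio of -1.02 that was -0.31 under the stricter filter), bipolar (103 and 33.4 CPM), amacrine (168 and 47.7 CPM) and horizontal cells (120.1 and 35.9 CPM), Müller cluster 12 (495 and 178 CPM), RPE (453 and 159.7 CPM) and melanocytes (338 and 106 CPM, with a ratio of -1.67 that was -0.83 by marker score). As a share of the pair, Hspa1b made up 70.0% (69.7% to 70.4%) in the GFP-labelled library and 51.1% (50.7% to 51.5%) in the sponge-labelled library over all kept cells. The sponge-labelled share was the lower in 15 of 15 units, with intervals that do not overlap in 12 of them. Endothelial cells had the lowest shares, 66.2% and 44.8%, and ocular surface epithelium the highest, 77.3% and 70.2%. Summed, the pair was lower in bipolar cells (log2 -1.28, -1.39 to -1.17) and higher in pericytes (1.12, 1.04 to 1.2), so both directions remain when the split between the copies is set aside.

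**Figure D5:**
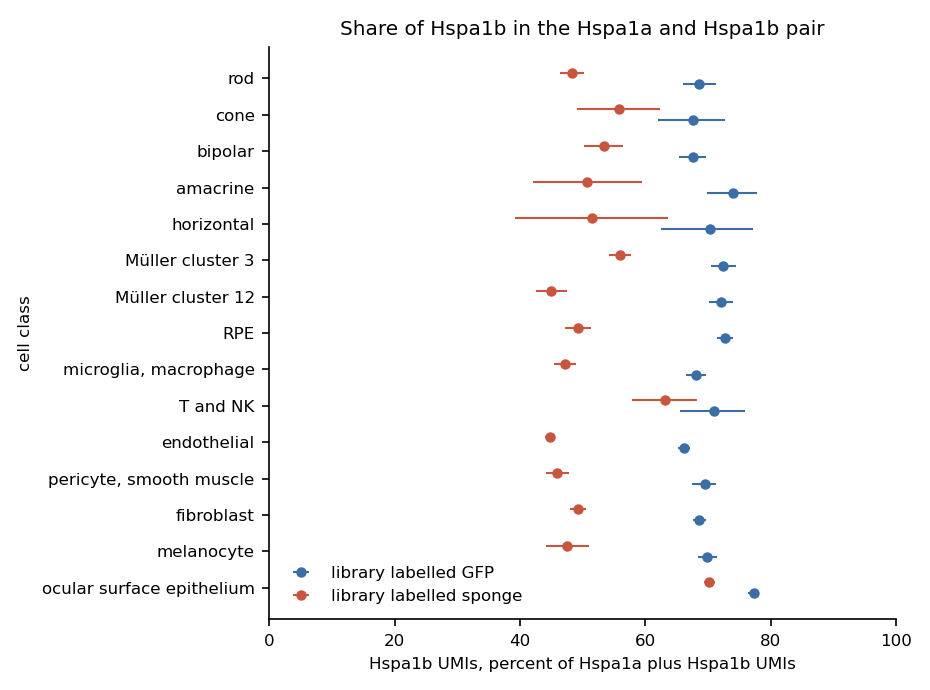
Share of Hspa1b among the summed UMIs of Hspa1a and Hspa1b (%) in each of the 15 units, 1 point per library with bars for the exact binomial 95% interval of counting error. The GFP-labelled points lie between 66.2% and 77.3% and the sponge-labelled points between 44.8% and 70.2%, lower in every unit.

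The values of this pair are uncertain, because the genes are near-identical copies and a read from a shared stretch cannot be assigned to either. By the GENCODE transcripts their coding sequences (1923 and 1926 bases) are 99.4% alike. The 3′ UTRs (813 and 646 bases) are the same in 407 of 865 alignment columns (47.1%). Of the 865 columns, 271 are gaps and 187 are mismatches. A 3′ tag can therefore tell them apart mostly where it reaches the UTR. No source used here says how the counting treated shared reads, and its part in the library difference was not tested. Hspa1a lies at chr17:34969190-34972156, minus strand, and Hspa1b at chr17:34956436-34959238, minus strand (GRCm38). The promoters are shown because they carry the same likeness upstream: over the 250 bases before the start they differ at 3 bases, which stand in capitals. The sequences come from the RefSeq promoter table (build GRCm38.p6), at chr17:34972157-34972406, minus strand and at chr17:34959239-34959488, minus strand.
Hspa1a: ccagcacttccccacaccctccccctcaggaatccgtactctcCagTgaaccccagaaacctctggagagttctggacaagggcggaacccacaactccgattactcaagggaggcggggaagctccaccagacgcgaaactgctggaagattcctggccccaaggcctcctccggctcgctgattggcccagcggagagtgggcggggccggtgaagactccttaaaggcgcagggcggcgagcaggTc
Hspa1b: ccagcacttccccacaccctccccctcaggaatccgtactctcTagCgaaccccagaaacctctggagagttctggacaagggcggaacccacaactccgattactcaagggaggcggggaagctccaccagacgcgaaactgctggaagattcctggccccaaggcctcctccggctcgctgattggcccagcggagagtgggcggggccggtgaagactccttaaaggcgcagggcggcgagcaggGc

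The constitutive chaperones were steadier. Hspa8, the everyday 70 kDa chaperone, was highest in fibroblasts at 841 and 1214 CPM and reached 2-fold in no unit, with ratios from -0.32 in amacrine cells to 0.69 in pericytes. Hsp90aa1, the stress-responsive 90 kDa chaperone, was highest in RPE at 2448 and 2555 CPM and lowest in ocular surface epithelium at 1338 and 731 CPM. Hsp90ab1, its constitutive relative, was highest in endothelial cells at 1102 and 1718 CPM. They leaned apart: Hsp90ab1 was above a ratio of 0 in 11 of 15 units and Hsp90aa1 in 2 of 15, though neither reached 2-fold anywhere. In fibroblasts the ratios were 0.63, 0.59 to 0.68 for Hsp90ab1 and -0.40, -0.44 to -0.35 for Hsp90aa1.

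Among the co-chaperones, Dnajb1, the inducible partner of the 70 kDa chaperones, was at least 2-fold higher in 2 of the units where the early genes were. It was at 76.7 CPM in the GFP-labelled library and 161 CPM in the sponge-labelled library in Müller cluster 3 (1.07, 0.94 to 1.21) and at 90.6 and 211 CPM in pericytes (1.22, 0.94 to 1.5), with its highest level in ocular surface epithelium at 430.3 and 694 CPM. It was above 0 in 13 of 15 units. Dnaja1, a constitutive J-domain partner, and Hsph1, the nucleotide exchange factor of that system, were highest in fibroblasts at 526 and 787 CPM and 236 and 400.5 CPM. Hsph1 was 2-fold lower in melanocytes at 65.9 and 31.6 CPM (-1.06, -1.36 to -0.77), a ratio that came to 0.11 with finer clusters and to 0.29 with classes set by marker score. Hspd1 and Hspe1, the mitochondrial chaperonin and its lid, are divergent neighbours whose annotated ends overlap by 112 bases, and they differed little. Hspd1 was highest in Müller cluster 12 of the GFP-labelled library at 172 and 169.5 CPM and in T and NK cells of the other at 108 and 217 CPM (1.0, 0.56 to 1.48, and 0.43 by marker score), the only unit where it reached 2-fold. Hspe1 had the same top units at 328 and 288 CPM and 256 and 293 CPM, and reached 2-fold in none.

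In a wider list of 39 other chaperones and co-chaperones, medians lay between -0.16 in horizontal cells and 0.28 in T and NK cells. The most at least 2-fold apart in 1 direction were in pericytes. There 4 of 38 measured were higher and 0 lower, beside 6.31% and 4.95% of all genes. Bag3, which links the 70 kDa chaperones to autophagy, recurred: it was at 32.2 and 104 CPM in pericytes (1.69, 1.25 to 2.15), 36.4 and 114 CPM in Müller cluster 12, 77.9 and 186 CPM in fibroblasts and 51.5 and 104 CPM in endothelial cells. It was lower in bipolar cells at 6.11 and 3.25 CPM (-0.91, -1.45 to -0.38), and in rods it stood at 8.22 and 5.60 CPM (-0.56, -1.12 to 0.04). Hspb1, the small chaperone Hsp27, was higher in ocular surface epithelium at 713 and 1906 CPM. It was lower in microglia and macrophages at 121 and 54.9 CPM and in melanocytes at 58.9 and 25.9 CPM. Hsf2, a heat shock transcription factor, was lower in fibroblasts at 37.0 and 16.01 CPM and in ocular surface epithelium at 22.2 and 9.28 CPM.

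The members' promoters share short motifs known from these responses, searched on both strands in the 250 bases before each start in the RefSeq table (27025 genes), where N is any base. TGACG, the core of the cyclic AMP response element, occurred in 12 of the 17 early genes in the table and in 3 of 7 chaperones, against 19.8% of all genes. The whole element TGACGTCA, which contains that core, was found in Dusp1 and Btg2, 2 of 17, against 1.77% of all genes. The heat shock element pieces GAANNTTC or TTCNNGAA occurred in 6 of 7 chaperones and 2 of 17 early genes, against 14.5% of all genes. The serum response CArG box was in Egr2 and Zfp36, 2 of 17, against 1.62%. Hspa1a with Hspa1b and Hspd1 with Hspe1 share sequence, so these chaperones are not 6 separate cases. A match is a description and shows neither binding nor a cause. The promoters of 3 early genes with large differences are shown, with TGACG, its complement or the whole element in capitals: Fos, at chr12:85473640-85473889, plus strand, Btg2, at chr1:134079156-134079405, minus strand, and Npas4, at chr19:4989972-4990221, minus strand.
Fos: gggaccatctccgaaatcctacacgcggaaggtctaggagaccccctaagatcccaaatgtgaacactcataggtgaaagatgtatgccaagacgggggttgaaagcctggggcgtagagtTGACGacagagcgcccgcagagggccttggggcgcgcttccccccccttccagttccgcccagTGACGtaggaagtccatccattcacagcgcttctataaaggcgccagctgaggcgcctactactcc
Btg2: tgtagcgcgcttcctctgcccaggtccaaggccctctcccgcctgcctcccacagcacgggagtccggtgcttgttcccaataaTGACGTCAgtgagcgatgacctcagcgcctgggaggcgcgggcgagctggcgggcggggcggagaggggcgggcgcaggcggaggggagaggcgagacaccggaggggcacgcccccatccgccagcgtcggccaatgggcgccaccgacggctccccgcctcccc
Npas4: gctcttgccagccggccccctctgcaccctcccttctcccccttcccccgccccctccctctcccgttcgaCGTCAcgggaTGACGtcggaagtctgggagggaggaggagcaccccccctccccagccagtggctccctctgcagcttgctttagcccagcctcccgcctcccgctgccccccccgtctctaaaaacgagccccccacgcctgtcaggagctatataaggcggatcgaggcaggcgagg

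The sponge was designed against miR-181, so the members were also searched for its seed match. The mature strands miR-181a-5p and miR-181b-5p are shown because they share the seed, bases 2 to 8, in capitals.
mmu-miR-181a-5p: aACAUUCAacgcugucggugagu
mmu-miR-181b-5p: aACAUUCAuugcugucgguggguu

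The complement of that seed, TGAATGT, was sought in the longest GENCODE 3′ UTR of each gene. It occurred in 3 of 21 early genes (Fos, Egr3 and Klf6) and in 1 of 10 chaperones (Dnaja1), against 3476 of 21685 genes, 16.03%. The members thus held the seed match about as often as genes at large. Of the early genes at least 2-fold higher in Müller cluster 3, Fos (log2 ratio 1.36) held a match. Ier2, Btg2 and Junb, with the highest ratios there, had none. Whether the sponge acted through such sites was not tested. The sites of Fos, from position 603 of 818 of the UTR, and Egr3, from position 1642 of 2648, are shown with the match in capitals.
Fos: tcgaggtggtcTGAATGTtctgacattaa
Egr3: gcagtcttgacTGAATGTatccttcctat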

How the data were processed

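The files deposited by the authors hold whole-number counts of UMIs per gene and barcode, not normalized, made with Cell Ranger 7.0.0 on mm10, per the submitters' processing notes. The rules for calling cells, for intronic reads and for strand are not given in the sources used here. Barcodes stayed in with at least 300 genes, 500 UMIs and no more than 25% of UMIs mitochondrial. Both libraries were clustered together in scanpy 1.11.5 (2000 variable genes, 30 components, 15 neighbours, Leiden resolution 1, 42 clusters) without 109 members and related genes. A cluster could take a class name when at least 3 markers of that class were 2-fold above the median cluster. The class score was the mean log2 ratio of its markers, with negative values set to 0. The next unrelated class had to score under 0.35 of it, and it had to reach 0.65 of that class's highest score. The 10 leading genes could not hold more markers of an unrelated class. This rule was set after the clusters were seen. Scrublet marked 0 and 1 cells and so did not work, and no doublets were removed. Ratios are of CPM, with 0.5 added to each count, intervals are exact Poisson or binomial, and there was no test because each group is 1 library.

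Every member was named in its highest unit and wherever its ratio passed 2-fold with at least 50 UMIs and an interval that leaves out 0. Wider-list genes were named among the 3 highest or lowest of their list in a unit. The members and lists were chosen with earlier results of these data known. The settings on shared barcodes and the summed Hspa1 pair were added after the data were seen. The code was checked on simulated counts.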

Additional observations from a re-analysis of the deposited data

How the results depend on the processing

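Each list median was recomputed with other clusterings, class rules, scalings, filters and cell weights. Values were set against the range from the median lower to the median upper counting limit of the members. This range is not an interval of the median itself. For the early genes 155 of 170 recomputed values lay within the reported range and 15 outside it. A further 0 had the opposite sign where that range left out 0. For the chaperones these were 171, 11 and 3 of 185. The 15 and 11 include the amacrine early medians and the RPE chaperone median below, which turned sign from ranges that held 0. With cells weighted equally the early median was 0.22 in amacrine and 0.94 in endothelial cells. With cells thinned to 1000 UMIs it was 0.19 in amacrine cells, 0.58 in fibroblasts, 0.51 in melanocytes and 0.60 in ocular surface epithelium. In Müller cluster 12 it was 0.94 over totals without mitochondrial and haemoglobin UMIs and 1.05 without the highest Scrublet scores. With the members left in the clustering it was 0.70 in fibroblasts and 0.51 in melanocytes, and melanocytes gave 0.70 at resolution 2 and 0.53 by marker score. Ocular surface epithelium gave 0.54 by marker score, 0.66 with median-of-ratios scaling and, in a setting chosen after seeing the data, 0.59 without the shared barcodes. The chaperone median was -0.31 in rods with median-of-ratios scaling and -0.070 in RPE with thinned cells. Microglia and macrophages gave 0.45 at resolution 2, 0.10 with equal weights and 0.17 thinned. Fibroblasts gave 0.59 with the members in the clustering, 0.58 at resolution 2, 0.61 with equal weights, 0.59 thinned and 0.33 with the Hspa1 pair summed. Signs of chaperone medians turned beyond the range in RPE, as given above, and in melanocytes (0.23 at resolution 2, 0.39 by marker score). They also turned in ocular surface epithelium (0.13 with median-of-ratios scaling). That epithelium kept its sign, at -7.33e-05, without the shared barcodes. Of single genes, Egr2 in RPE turned to 0.42 with equal weights, Klf4 in T and NK cells to 0.020 thinned, and Hsph1 in melanocytes to 0.11 at resolution 2 and 0.29 by marker score. The cause was not tested in any of these. Of the 72 gene and unit pairs named, 43 stayed at least 2-fold apart under every alternative that gave a value. The Müller clusters have no value where the clusters were redrawn. No paired analysis was possible because each group is 1 library. Depth limits Npas4, Arc, Egr2 and Egr3 most, which had few UMIs in several units.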

Other observations

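Cells outside the named classes were not without the early genes. In the unnamed clusters together, 16333 and 8755 cells in the GFP-labelled and sponge-labelled libraries, the median early ratio was 0.84 with 20 of 21 genes above 0 and 6 at least 2-fold higher, while the chaperone median was 0.29. Over all genes measured there the median was -0.06, with 4.53% higher and 5.21% lower by 2-fold. The unnamed clusters entered in different proportions, for example cluster 4 with 2876 and 185 cells, so the pooled values mix them. The largest of these clusters, led by haemoglobin and rod genes and with median mitochondrial shares of 16.5% and 12.4%, gave 0.88 for the early genes, with 9 of 21 at least 2-fold higher, beside an all-gene median of 0.14 with 4.04% higher and 2.95% lower. Its median depth was 1471 and 1217 UMIs, lower in the sponge-labelled library, unlike in most named units.

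T and NK cells held the highest ratio in the wider early list: Ier5l, an early-response relative of Ier2, was at 17.4 and 122 CPM (2.75, 1.84 to 3.93), and Dusp2, a phosphatase of activated lymphocytes, at 27.8 and 91.9 CPM. Socs3, the inhibitor of cytokine receptors, was higher in melanocytes at 40.5 and 165 CPM (2.02, 1.82 to 2.23) and in fibroblasts at 88.8 and 249 CPM. Ptgs2 was lower in melanocytes too, at 10.7 and 4.66 CPM.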
